A study of Mus musculus with 6 samples.

Results

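The genes described here encode 9 surface molecules by which blood stem and progenitor cells are recognised: Kit, Flt3, Cd48, Slamf1, Cd34, Ly6a, Procr, Prom1 and Cd93. They were taken by symbol from a list of such markers, drawn up with earlier results of these data known, and all 9 were found among the 53735 genes of the deposited table. Transcripts were measured by RNA sequencing in leukemia stem cells, the leukemic cells able to start the disease anew, taken from mice of strain C57 on day 13 after leukemia cells had been transplanted. There were 3 libraries from bone marrow and 3 from liver, all from untreated mice that the labels give as male. Per the labels the libraries of each tissue are technical replicates, and neither the leukemia's driver alleles nor the markers used for isolation are named in the sources used here. It is therefore not known whether any of the 9 proteins was part of the gate.

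KIT and FLT3 are receptor tyrosine kinases that carry growth and survival signals from stem cell factor and FLT3 ligand into progenitors. CD48 and SLAMF1 (CD150) belong to the SLAM family of immune receptors and are used together to separate blood stem cells, which carry SLAMF1 and lack CD48, from more mature progenitors. CD34, LY6A (Sca-1), PROCR (the endothelial protein C receptor), PROM1 (CD133) and CD93 mark stem or progenitor stages, and several of them are also made by endothelial cells.

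Depth was 15.4 to 18.5 M reads in bone marrow and 9.73 to 13.8 M in liver, and values are normalized counts, that is read counts divided by 1 size factor per library. Libraries stood apart by replicate number. Xist, the RNA of the inactive X chromosome, was at 4860 and 6229 normalized counts in replicate 1 of bone marrow and liver and at 4.28 and 1.42 in replicate 2, against the label of male animals. Normalized counts of 4 Y-linked genes (Uty, Kdm5d, Eif2s3y, Ddx3y) were summed. The sums were 145 and 0 in replicate 1 of bone marrow and liver, and 2987 and 2675 in replicate 2. Replicate 3 held both kinds in both tissues and lay between, with Xist at 2486 and 2425 and Y-linked sums of 1553 and 1634. No 2 libraries of a tissue were alike within counting noise (chi-square per degree of freedom 6.93 to 28.3), so all 6 were kept as separate samples. This does not show that they are independent, and the origin of the replicates is not known. The p-values measure only how far these libraries spread, part of which may be technical.

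The libraries carried leukocyte transcripts, and genes listed for other liver or stromal cells had lower sums. The lists differ in number and length of genes, so their sums do not give shares of cells. The sum over 6 leukocyte genes, Ptprc (CD45) among them, was 47278 to 49984 in the bone marrow libraries and 43880 to 48111 in the liver libraries. Of 12 hepatocyte genes 7 had 0 reads in all libraries, Alb (albumin) and Ttr among them, and the sum of that list came mostly from Apoa1 (2645 to 5659 in bone marrow, 2285 to 3003 in liver). Of 14 endothelial genes 4 had 0 reads in all libraries, namely Cdh5, Emcn, Robo4 and Cldn5, and the sum ran from 1621 to 3100 in bone marrow and from 1783 to 3235 in liver. The endothelial gene Pecam1, which blood cells also express, was at 343, 1076 and 614 in bone marrow and 430, 1393 and 1072 in liver. Sums of 12 mast cell and basophil genes were 27258 to 33279 in bone marrow against 18603 to 28465 in liver, and mast cells also carry KIT. A large part was Gata2, also a factor of stem cells, at 13502 to 14674 in bone marrow and 10349 to 13513 in liver. Of 11 of them tested, 9 had negative fold changes and the median was -1.86 on the log2 scale. The 2 with positive fold changes were Prss34 (3.48) and Mcpt8 (0.89). With limma Tpsb2 fell and Prss34 rose in liver, and 9 did not pass, among them Cpa3 (-2.01, adjusted p = 0.071) and Fcer1a (-2.03, 0.061); DESeq2 called 8 lower and 1 higher. Tpsb2 lost its call without bone marrow replicate 2 or 3, and Prss34 without any bone marrow replicate or liver replicate 3 (limma adjusted p up to 0.13 for both). Sums of 9 erythroid genes were 7826 to 8210 in bone marrow and lower, 5584 to 5983, in liver. The part of these cell types in the levels of the 9 genes was not tested.

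Transcripts of 8 of the 9 genes were found at measurable levels in both tissues, and Prom1 was all but absent. The 9 genes together took 0.0743% to 0.0761% of the reads in bone marrow and 0.0610% to 0.0761% in liver. Levels of different genes can be compared only per length, so each value was divided by the exon bases of the gene in GENCODE M21. Per kb of exon, Cd48 stood highest, with 3743 to 4620 normalized counts per kb over the 6 libraries. Ly6a followed with 592 to 2345, then Cd34 with 144 to 295. These 3 ranges overlap neither each other nor those of the other genes. Below them Cd93 (68.7 to 113), Flt3 (58.4 to 117), Procr (36.5 to 106), Kit (47.0 to 73.8) and Slamf1 (27.0 to 64.0) overlapped with their neighbours in this order. Prom1 reached at most 0.839 per kb.

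**Figure D1:**
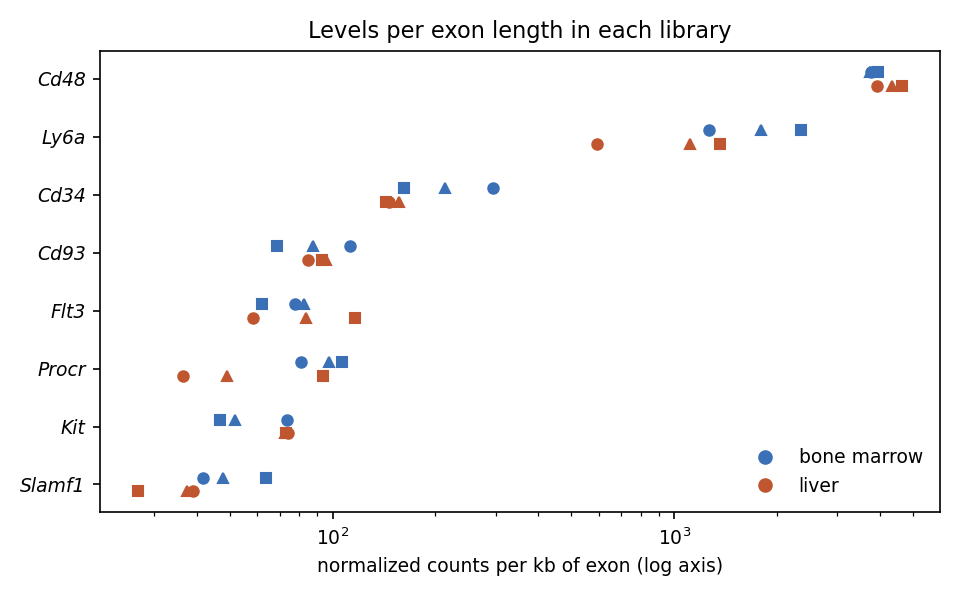
Normalized counts per kb of exon (log axis) for the 8 genes with reads in every library; blue is bone marrow, orange liver, and circles, squares and triangles are replicates 1, 2 and 3. Cd48 lies at 3743 to 4620 in all libraries, while Cd93, Flt3, Procr, Kit and Slamf1 overlap below 117.

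Liver was compared with bone marrow to ask whether leukemia stem cells in the liver carry these receptors at other levels. Of the 9 genes 8 averaged 10 normalized counts or more and were tested, and none passed the test: limma, with p-values adjusted over all 14298 genes tested and a threshold of 0.05, called 0 of 8, beside 1.01% of all genes (0.420% higher and 0.594% lower in liver). At an unadjusted p under 0.05 there were 5 of 8, Kit and Cd48 higher and Cd34, Ly6a and Slamf1 lower in liver, beside 15.7% of all genes (7.65% higher and 8.04% lower). Counts recovered as whole reads also gave 0 calls with edgeR's quasi-likelihood test (4 at an unadjusted p under 0.05, 0.944% of all genes called) and with DESeq2 (5, and 4.35%). With replicate number as a model term, limma called 1 of the 8, Ly6a, beside 525 of the 14298 genes. The tissues did not overlap in 2 of the 8, Cd34 and Slamf1, both lower in liver, beside 22.3% of all genes in either direction, 10.9% with liver lower and 11.4% with liver higher. Log2 fold changes, liver minus bone marrow, were positive for 4 genes and negative for 4, with a median of -0.24 beside -0.01 over all genes tested. The spread between libraries of 1 tissue was also wide, with a median SD of 0.31 on the log2 scale beside 0.18 over all genes. In bulk samples fewer cells with a transcript and less of it in each cell cannot be told apart.

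**Figure D2:**
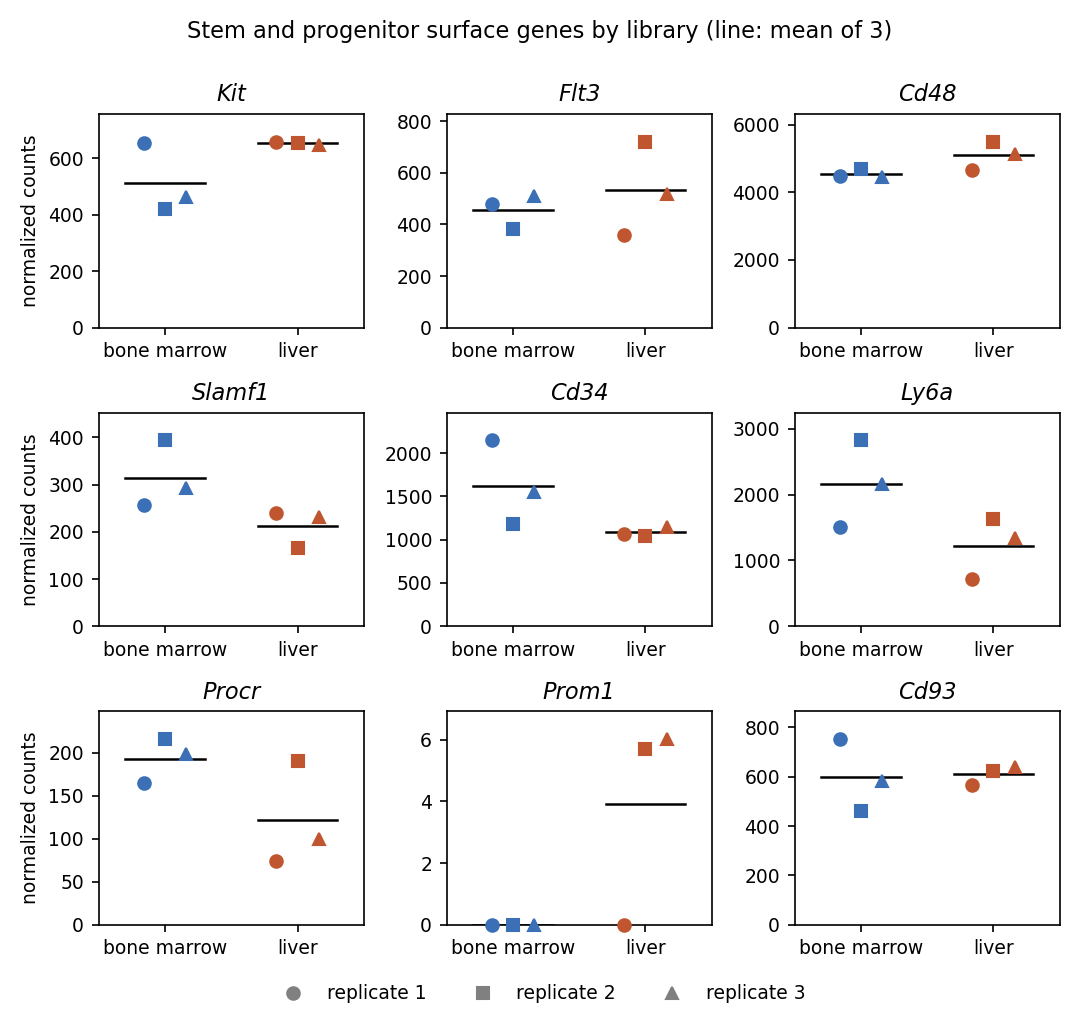
Normalized counts of the 9 genes in each library, with circles, squares and triangles for replicates 1, 2 and 3, and a line at the mean of 3. Cd34 and Slamf1 have all liver points below all bone marrow points; the other genes overlap, apart from Prom1, which has reads in liver replicates 2 and 3.

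Kit, the stem cell factor receptor gene, was at 654, 419 and 462 normalized counts in bone marrow replicates 1, 2 and 3 and at 658, 652 and 647 in liver. The liver libraries were close to each other and level with bone marrow replicate 1, and bone marrow replicates 2 and 3 were lower. The means were 511 ± 125 in bone marrow and 652 ± 5.69 in liver (SD, n = 3 each). Liver minus bone marrow was 0.38 ± 0.16 (SE) in log2 units, with a 95% interval of 0.00 to 0.75 and a limma adjusted p of 0.316. The value was 0.57 without bone marrow replicate 1 and 0.25 without bone marrow replicate 2. The ligand gene Kitl was low, with 59 reads over the bone marrow libraries and 36 over the liver libraries.

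Flt3 stood at 480, 384 and 509 in bone marrow and at 361, 721 and 518 in liver. The liver libraries enclosed the bone marrow range, with replicate 1 lowest and replicate 2 highest. The log2 fold change was 0.17 ± 0.24 (SE; 95% interval -0.39 to 0.74, limma adjusted p = 0.788), and it was -0.07 without liver replicate 2. The ligand gene Flt3l was at 357 to 461 in bone marrow and 370 to 456 in liver.

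With limma and with edgeR no gene passed among the relatives and signalling partners of these kinases, while DESeq2 called 5, as given here. Of 6 further class III receptor and ligand genes tested, Pdgfrb, a platelet-derived growth factor receptor gene, had the smallest p, at 664, 363 and 535 in bone marrow and 260, 249 and 202 in liver. Its log2 fold change was -1.10 (adjusted p = 0.074 with limma and 0.00018 with DESeq2). Pdgfrb is also on the stellate cell and fibroblast list, and the part of such cells in its level was not tested. Il34 and Csf1r, the genes of a ligand and its receptor on macrophages, had -1.09 and -0.47. Of 21 genes of KIT and FLT3 signalling, 9 had positive and 12 negative fold changes with a median of -0.08. The 4 with the smallest p were the kinase gene Fyn (0.30), the transcription factor gene Mitf (-1.05), the RAS pathway inhibitor gene Spred1 (-0.27) and the adapter gene Gab2 (-0.51), with adjusted p from 0.089 to 0.144 in limma and from 0.014 to 0.036 in DESeq2.

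The SLAM pair sits side by side on chromosome 1, with 61.9 kb between the genes in GENCODE M21 (GRCm38). The 250 bases before each start, from RefSeq on GRCm38.p6 and 5′ to 3′ on the plus strand, are shown because these neighbours had opposite signs here. They lie at chr1:171681742-171681991 for Cd48 and chr1:171766882-171767131 for Slamf1. Capitals mark the letters TGTGGT (RUNX), GATAA (GATA) and GGAAG (ETS) or their reverse complements.
Cd48: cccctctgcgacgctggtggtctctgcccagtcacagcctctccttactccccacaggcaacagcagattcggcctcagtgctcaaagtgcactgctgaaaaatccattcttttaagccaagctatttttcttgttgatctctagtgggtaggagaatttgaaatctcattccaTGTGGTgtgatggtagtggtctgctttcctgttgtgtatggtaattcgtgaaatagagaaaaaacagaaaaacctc
Slamf1: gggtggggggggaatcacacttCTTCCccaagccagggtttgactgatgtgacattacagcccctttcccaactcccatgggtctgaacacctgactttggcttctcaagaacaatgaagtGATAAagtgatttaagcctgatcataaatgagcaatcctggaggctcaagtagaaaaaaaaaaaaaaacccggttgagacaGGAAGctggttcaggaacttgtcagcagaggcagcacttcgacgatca
TGTGGT was found at -76 from the start of Cd48, and GATAA at -129 and GGAAG at -228 and -48 in Slamf1, with no overlap between matches. Of 32851 promoters of the same length, 4614 held TGTGGT on either strand, 7418 (22.6%) GATAA and 21047 (64.1%) GGAAG. These promoters leave out those of a single chromosome. The motifs were chosen after the sequences were seen, and a match is a description of the letters.

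Cd48 was at 4479, 4698 and 4451 in bone marrow and 4659, 5494 and 5133 in liver. Liver replicate 1 lay within the bone marrow range and the other two liver libraries above it. Its log2 fold change was 0.16 ± 0.07 (SE; 95% interval 0.00 to 0.32, limma adjusted p = 0.310), and 0.11 without liver replicate 2. Its within-tissue SD, 0.090 on the log2 scale, was the smallest of the 8, with a highest to lowest ratio of 1.06 in bone marrow and 1.18 in liver.

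Slamf1 was at 258, 394 and 294 in bone marrow and 240, 166 and 231 in liver. Every liver library was below every bone marrow library, by a narrow gap between liver replicate 1 and bone marrow replicate 1. The means were 315 ± 70.6 and 213 ± 40.3 (SD, n = 3 each), so the liver mean was 67.4% of that in bone marrow. The log2 fold change was -0.56 ± 0.21 (SE; 95% interval -1.05 to -0.08, limma adjusted p = 0.263).

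None of the other SLAM genes passed with limma, edgeR or DESeq2. Cd244, whose product binds CD48, was at 747, 718 and 632 in bone marrow and 551, 648 and 660 in liver (log2 fold change -0.17, limma adjusted p = 0.494). Ly9 was low, at 11.7 to 21.4 in bone marrow and 14.4 to 62.5 in liver. Of 13 SLAM family and adapter genes in the table, Cd48 and Slamf1 included, 5 reached the level for testing, and Slamf6 and the adapter gene Sh2d1a had 0 reads.

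Cd34 encodes a sialomucin, a heavily glycosylated surface protein. The 250 bases before its start lie at chr1:194938571-194938820 on the plus strand (RefSeq, GRCm38.p6) and are shown because it is the other gene whose tissues did not overlap. They held 1 of the 4 motifs searched, GGAAG on the minus strand at -142 (capitals). TGACTCA (AP-1), the fourth, is in 4.46% of the same 32851 promoters.
Cd34: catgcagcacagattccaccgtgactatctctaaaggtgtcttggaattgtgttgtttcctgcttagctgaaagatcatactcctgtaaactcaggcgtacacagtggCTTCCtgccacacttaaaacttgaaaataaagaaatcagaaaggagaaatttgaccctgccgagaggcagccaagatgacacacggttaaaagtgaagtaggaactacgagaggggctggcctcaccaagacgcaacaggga
Of the 7 genes with a RefSeq promoter, 5 held GGAAG, 2 TGTGGT, 2 TGACTCA and 1 GATAA.

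Cd34 was at 2148, 1179 and 1551 in bone marrow and 1063, 1048 and 1143 in liver. The liver libraries lay close together and all below bone marrow, where replicate 1 was highest and replicate 2 only just above liver replicate 3. The means were 1626 ± 489 and 1084 ± 51.1 (SD, n = 3 each), so liver had 66.7% of the bone marrow mean. The log2 fold change was -0.54 ± 0.19 (SE; 95% interval -0.99 to -0.09, limma adjusted p = 0.245). It was -0.32 without bone marrow replicate 1, and DESeq2 gave an adjusted p of 0.053.

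Among 7 further genes of sialomucins and their ligands none passed with limma or edgeR, and 1 did with DESeq2, higher in liver. With Cd34 counted in, 4 fold changes were positive and 4 negative, with a median of 0.005. The sialomucin genes Podxl, a close relative of Cd34, and Spn (CD43) had -0.22 and -0.19.

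Ly6a encodes Sca-1, a small protein held in the membrane by a lipid anchor and the marker that gives mouse stem cell gates their name. It was at 1516, 2826 and 2164 in bone marrow and 713, 1633 and 1335 in liver. In both tissues replicate 1 was lowest and replicate 2 highest, and the tissues overlapped because liver replicate 2 was above bone marrow replicate 1. The means were 2169 ± 655 and 1227 ± 469 (SD, n = 3 each), 56.6% of the bone marrow mean in liver. Its log2 fold change was the largest in size of the 8, -0.86 ± 0.33 (SE; 95% interval -1.63 to -0.09, limma adjusted p = 0.275), and -0.51 without liver replicate 1. With replicate number as a model term the limma adjusted p was 0.0051, and 0.091 when both replicate 3 libraries were also left out. The numbers were not taken to pair the samples, though pairing was neither shown nor excluded.

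Reads of Ly6a are in part uncertain, because 19.0% of the 50-base stretches of its transcripts also occur in transcripts of other genes, mostly Ly6c1. Ly6c1 itself had 26 reads over the bone marrow libraries and 3 over the liver libraries. Ly6c2, a monocyte and granulocyte gene of the same cluster, was at 24.2, 89.9 and 63.9 in bone marrow and 56.3, 1212 and 748 in liver (log2 fold change 2.82, limma adjusted p = 0.278). The adjusted p of Ly6c2 was 0.012 without liver replicate 1 and 0.044 with DESeq2. Neutrophil genes, 10 in all, summed to 79.9 to 121 in bone marrow and 177 to 876 in liver, and their part in the level of Ly6c2 was not tested. Ly6e was abundant, at 27883 to 33304 in bone marrow and 22045 to 33502 in liver, and passed none of the tests.

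Procr, whose product binds protein C and presents it for activation, was at 164, 216 and 198 in bone marrow and 74.1, 190 and 99.9 in liver. Liver replicates 1 and 3 were below all bone marrow libraries and liver replicate 2 was among them. The log2 fold change was -0.77 ± 0.33 (SE; 95% interval -1.54 to 0.01, limma adjusted p = 0.322), and it was -0.47 without liver replicate 1. The liver values rest on 75, 134 and 83 reads. Of 4 partner genes tested, F2r, the gene of the thrombin receptor PAR1, had the smallest p, at 14963, 17105 and 16409 in bone marrow and 12962, 13149 and 12856 in liver (-0.31, adjusted p = 0.058 with limma and 0.00094 with DESeq2). F2rl3 and F2rl2, genes of other receptors of that family, had 0.39 and 0.26, and the protein C gene Proc had 0 reads.

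Prom1 encodes a membrane protein of surface protrusions. It had 0 reads in the 3 bone marrow libraries and in liver replicate 1, 4 reads in liver replicate 2 and 5 in liver replicate 3. Taking 3 reads for the bone marrow libraries together as the floor, the pooled liver level was 4.27-fold that floor. The floor covers counting error in bone marrow only. The error of the 9 liver reads is not covered, so the value is not a lower bound. The gene was below the level for testing. In GENCODE M21, 5.91% of its exon bases lie under Gm16401 on the opposite strand, and the library chemistry does not keep the strand.

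Cd93, the gene of a lectin-like receptor of early progenitors, myeloid cells and endothelium, was at 752, 459 and 584 in bone marrow and 565, 621 and 641 in liver. The liver libraries lay within the bone marrow range. The log2 fold change was 0.05 ± 0.17 (SE; 95% interval -0.35 to 0.45, limma adjusted p = 0.917), and -0.12 without bone marrow replicate 2. Of the related genes tested, Mmrn1 and Thbd had 0.48 and 0.19 and did not pass with limma, edgeR or DESeq2.

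**Figure D3:**
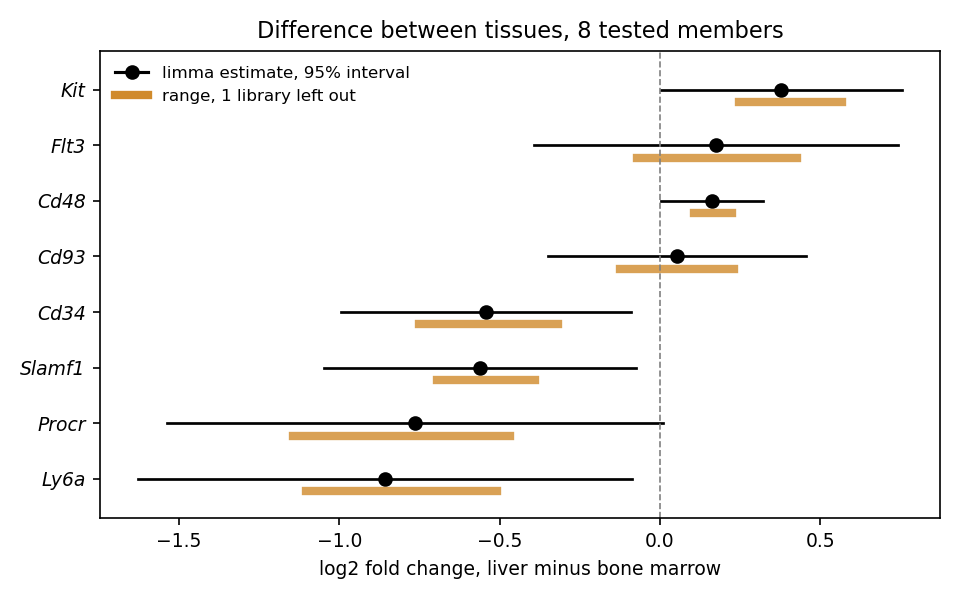
Log2 fold change of liver minus bone marrow for the 8 tested genes, with the limma 95% interval (black) and the range of the estimate when 1 library is left out (orange). Estimates run from -0.86 for Ly6a to 0.38 for Kit, and the ranges of Flt3 and Cd93 cross 0.

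Replicates were compared by number, since sex-linked transcripts differed by number. In bone marrow replicate 3 lay between replicates 1 and 2 for 6 of the 8 genes, beside 43.6% of all genes, and in liver for 5 of 8, beside 50.8%. Compared within a number, with 1 library on each side and so without a test, liver was lower at all 3 numbers for Cd34, Ly6a, Slamf1 and Procr, beside 21.4% of all genes. Kit and Cd48 were higher at all 3, beside 20.7%, and Flt3 and Cd93 had mixed signs. For Ly6a the log2 differences were -1.09, -0.79 and -0.70 at numbers 1, 2 and 3, which were closer together than for Procr (-1.14, -0.18 and -0.98) or Slamf1 (-0.10, -1.24 and -0.34). For Cd34 they were -1.01, -0.17 and -0.44, and for Kit 0.01, 0.64 and 0.48. Without both replicate 3 libraries the fold changes were -0.94 for Ly6a, -0.67 for Slamf1, -0.66 for Procr, -0.59 for Cd34, 0.32 for Kit and 0.14 for Cd48, again with 0 of 8 called by limma.

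**Figure D4:**
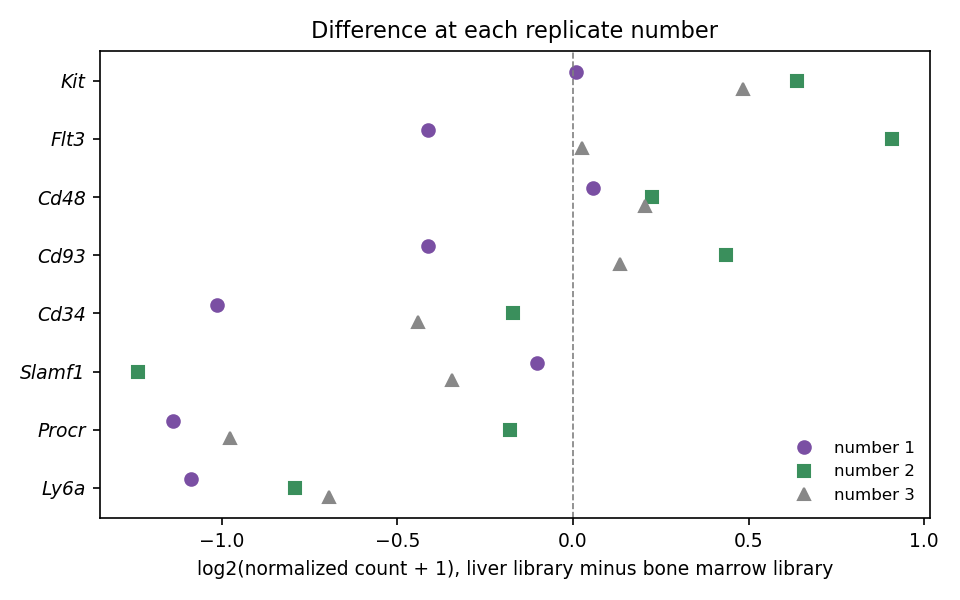
Difference in log2(normalized count + 1) between the liver and the bone marrow library that share a replicate number, for the 8 tested genes. Ly6a lies between -1.09 and -0.70 at the 3 numbers, while Flt3 and Cd93 fall on both sides of 0.

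The genes whose pattern over the 6 libraries was nearest to 3 of these genes were sought among 11441 others that averaged 50 normalized counts or more, by the root mean square difference of centred log2 levels. Nearest to Cd34 was Ms4a2, a subunit gene of the IgE receptor (0.078 log2 units), at 5218, 2803 and 3857 in bone marrow and 2528, 2847 and 2617 in liver. Ms4a2 is on the mast cell and basophil list, and the part of such cells in the level of Cd34 was not tested. The next 2 were gene models with clone names only. Nearest to Slamf1 were Azin2 (0.078), Ccl4, a chemokine gene (0.091), and Arrdc4 (0.12). Nearest to Ly6a were Slc39a4, a zinc transporter gene (0.070), Vwa7 (0.077) and Ffar2, a fatty acid receptor gene (0.10). None of these genes passed with limma, with adjusted p from 0.135 to 0.447.

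Other surface molecules of stem and progenitor cells were tested from a list of 34, of which 29 could be tested. With limma 1 rose, 3 fell and 25 did not pass, beside 1.01% of all genes called. DESeq2 called 2 higher and 5 lower, beside 4.35% of all genes. The median log2 fold change was -0.12, beside -0.01 over all genes. Csf2rb2, a receptor chain gene of interleukin-3, fell from 933 ± 209 to 356 ± 56.8 normalized counts (SD, n = 3 each; log2 fold change -1.37, limma adjusted p = 0.027). It closely resembles Csf2rb (-0.54, adjusted p = 0.083), so reads of the pair are uncertain. Eng, the gene of the TGF-beta co-receptor endoglin, fell, from 435, 383 and 448 to 274, 274 and 260 (-0.64, limma adjusted p = 0.046). It is itself on the endothelial list, whose sums overlapped between the tissues. Itga2b (CD41), an integrin of megakaryocytes and early progenitors, fell from 18984 ± 554 to 12418 ± 1937 (-0.62, limma adjusted p = 0.043). The 8 megakaryocyte genes, Itga2b among them, summed to 26958 to 31564 in bone marrow and 14500 to 31436 in liver. Much of these sums was Itga2b itself, at 18430 to 19537 and 10831 to 14576. Of the 8 fold changes 3 were positive and 5 negative. The part of such cells in the level of Itga2b was not tested. Hmmr, a hyaluronan receptor gene that is also expressed with mitosis, rose from 1049 ± 10.3 to 1471 ± 67.1 (0.49, limma adjusted p = 0.027).

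Surface antigens known from human myeloid leukemia stem cells gave 13 tested genes. With limma 1 fell and 12 did not pass, beside 1.01% of all genes called. DESeq2 called 5, all lower, beside 4.35% of all genes. Of the 13 fold changes 10 were negative, with a median of -0.23 beside -0.01 over all genes. Lilrb4a, an inhibitory receptor gene with a close copy beside it, fell from 5931 ± 99.9 to 4122 ± 431 (SD, n = 3 each; log2 fold change -0.53, limma adjusted p = 0.037). Next came Adgrg1 (GPR56, -0.18), Il3ra, the interleukin-3 receptor alpha gene (-0.63), and Havcr2 (TIM-3, -0.45), with adjusted p from 0.106 to 0.144 in limma and from 0.017 to 0.035 in DESeq2. The calls of Csf2rb2, Eng, Itga2b and Lilrb4a were lost without any 1 of bone marrow replicates 1, 2 and 3 and liver replicates 2 and 3, with adjusted p up to 0.259, and kept without liver replicate 1. That of Hmmr was lost without any bone marrow replicate or liver replicate 3 (up to 0.183), that of Eng was lost without a filter on low values (0.054), and all 5 were lost without both replicate 3 libraries (adjusted p = 0.873).

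**Figure D5:**
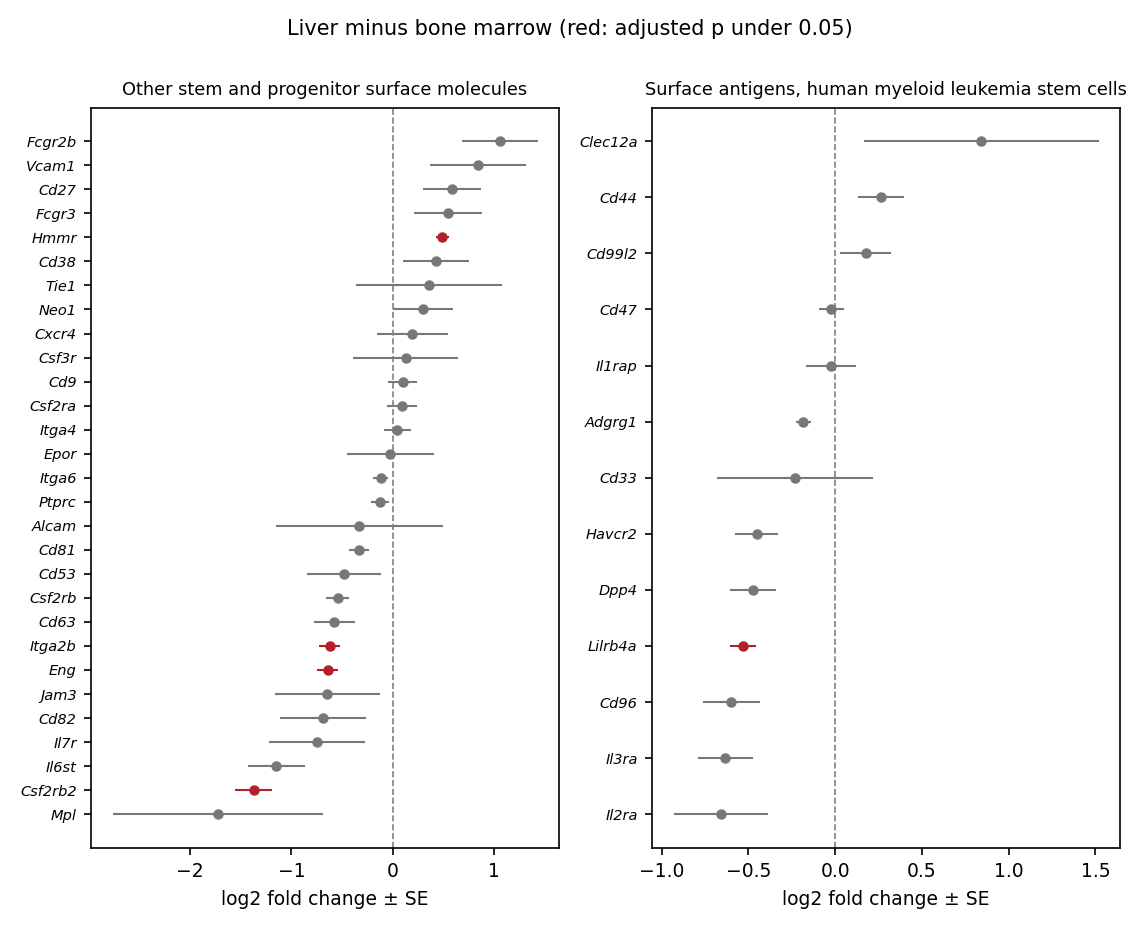
Log2 fold change ± SE of liver minus bone marrow for 29 other stem and progenitor surface genes (left) and 13 genes of leukemia stem cell antigens (right), with red for limma adjusted p under 0.05. Csf2rb2, Eng, Itga2b and Lilrb4a lie left of 0 and Hmmr right of it.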

How the data were processed

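The deposited values are a signal per gene and library: read counts that the authors divided by 1 DESeq2 size factor per library, as the file's name and the submitters' processing notes have it. The notes list STAR 2.6.0c, Trimmomatic 0.36, bcl2fastq 2.19.0, R 3.4.1 and DESeq2 1.16.1. The sources used here give no build, annotation or read counter. Libraries came from a low-input full-length cDNA kit and tagmentation, which does not mark strand. All values (100%) were whole multiples of the smallest in their library within 0.01, so whole reads were recovered.

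Tissue was fitted to log2(normalized count + 1) with limma 3.58.1 in R 4.3.3 (variance trend, two-sided, Benjamini-Hochberg over the 14298 genes with a mean of at least 10). Fold changes on that scale understate the change of low genes. Alternatives were TMM factors, other pseudocounts and filters, edgeR 4.0.16 and DESeq2 1.42.0 on recovered reads, a replicate block, and leaving out libraries. The members and lists were chosen with earlier results of these data known. Named genes are all members and, of each list, up to 4 with the smallest p and every gene that passed; some of these are not reported here. Ligands and genes named for reads at or near 0, Ptprc, Pecam1, Apoa1, Ly6c1, Csf2rb, Xist and the Y-linked genes were picked with their values in view. Lengths and 50-base matches come from GENCODE M21, which may not be the annotation used for counting. Figures were drawn with matplotlib 3.10.9.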

Additional observations from a re-analysis of the deposited data

How the results depend on the processing

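Under 16 alternatives, 125 of 128 fold changes of the 8 tested members kept their direction and stayed short of the threshold. The exceptions were Cd93 (-0.12 without bone marrow replicate 2), Flt3 (-0.072 without liver replicate 2) and Ly6a with the replicate block. Leaving out 1 library gave ranges that crossed 0 for Cd93 (-0.12 to 0.23), Flt3 (-0.072 to 0.43), F2rl2 (-0.042 to 0.54), Ly6e (-0.28 to 0.027), Mmrn1 (-0.027 to 1.158) and Thbd (-0.46 to 0.62), the last also -0.24 without liver replicate 1. The count of genes past the threshold, 145 with all libraries, was 6 to 427 when 1 library was left out, 622 with DESeq2, and 2 without both replicate 3 libraries. The cause was not tested. With the replicate block (number as a model term) the count was 525, with 1 member past the threshold, Ly6a (limma adjusted p = 0.0051), and 15 without both replicate 3 libraries, where Ly6a had 0.091. Deviations of same-numbered libraries correlated by 0.44, 0.40 and 0.058, beside -0.44 and -0.38 across numbers 1 and 2. Liver replicate 3 correlated best with bone marrow replicate 2 (0.15). Bone marrow replicate 3 had -0.042, 0.0087 and 0.058 with liver replicates 1, 2 and 3, so number 3 tells little about pairing. The main fit did not pair samples by number. Sex-linked transcripts went by number in both tissues, so pairing was neither shown nor excluded. Prom1, with 9 reads in all, was too low to test.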

Other observations

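Transcription factor genes of stem and progenitor cells showed no difference called by limma or edgeR between the tissues. Of 19 tested, 10 had positive and 9 negative fold changes, with a median of 0.02, and 0 passed with limma against 2 with DESeq2, both higher in liver and Cebpa among them. Among those with the smallest p were Cebpa, a myeloid differentiation factor gene (26.0, 40.2 and 55.0 normalized counts in bone marrow against 61.3, 208 and 173 in liver), Hhex (log2 fold change -0.25) and Hoxa9 (0.22), with limma adjusted p from 0.158 to 0.213. Gata2, a factor of stem cells and of mast cells, was at 13502 to 14674 in bone marrow and 10349 to 13513 in liver.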
